A study of Mus musculus with 6 samples.

Results

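The genes described here are 9 that hippocampal astrocytes use to handle water, potassium and glutamate, taken by gene name from the study's table of mRNA read counts, whatever their values. They are Aqp4, Dag1 and Mlc1 of the astrocyte endfoot, the gap junction genes Gja1 and Gjb6, the potassium channel gene Kcnj10, the glutamate transporter genes Slc1a2 and Slc1a3, and Glul, which encodes glutamine synthetase. The table held 17385 genes, of which 13937 had enough reads to be tested, and all 9 were among these. The study compared the hippocampus of 5xFAD mice and wild-type (WT) littermates at an age of 3 months by rRNA-depleted, paired-end sequencing, with 3 libraries per genotype. The 5xFAD mouse is a transgenic line on a C57BL/6J background whose human transgenes, including APP, bear mutations of familial Alzheimer's disease. The mouse Thy1 promoter, which is active in neurons, drives the APP transgene, and WT mice carry no transgene. The labels name no treatment for either group. The sources used here do not say which mouse or mice each library came from, so the p-values below measure the spread between these libraries. The question was how far this astrocyte equipment differed between the genotypes at an early age.

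Astrocytes wrap capillaries with flat endfeet and synapses with fine processes. In the endfoot membrane aquaporin-4 (Aqp4), the main water channel of the brain, is held in place by the dystrophin complex, whose dystroglycan core (Dag1) binds the laminins and agrin of the vascular basement membrane. Neighbouring astrocytes are joined by gap junctions made of connexins, and this network spreads the potassium that active neurons release and Kir4.1 (Kcnj10) takes up. Glutamate is cleared from synapses by GLT-1 (Slc1a2) and GLAST (Slc1a3), and glutamine synthetase (Glul) turns it into glutamine, which returns to neurons.

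Total counts per library lay between 18997677 and 23873280. Levels below are CPM, the reads of a gene scaled to a common library size with the TMM method of edgeR, and all fold changes are 5xFAD over WT on a log2 scale. The 5xFAD libraries were not alike. In 5xFAD replicates 1 and 2 the deviation from the WT mean fell with the GC content of the transcript (Spearman correlation across genes of -0.52 and -0.66), whereas it was -0.07 in 5xFAD replicate 3 and between -0.06 and 0.06 in the WT libraries. The fold changes of the 9 genes are therefore also given with a term for GC content and transcript length, or with 5xFAD replicate 3 alone. That last comparison has 1 5xFAD library against 3 WT, so its spread comes from the WT libraries alone and it assumes that 5xFAD varies like them. The tissue held astrocyte RNA in every library, since all 12 general astrocyte markers (Aldh1l1, Aldoc and Sox9 among them) were detected and their summed level was 2403 to 2443 CPM in WT and 2151 to 2376 CPM in 5xFAD. None of the 12 was called, and their median log2 fold change was -0.17, or -0.07 with the GC and length term and 0.01 in 5xFAD replicate 3 alone, where 1 was called. Of 8 reactive astrocyte markers tested, 2 were called higher, Gfap and Osmr, where 0.667% of all tested genes were, and 7 had fold changes above 0. The summed level of that list, mostly Gfap (402.2 ± 25.2 and 1015 ± 39.7 CPM), was 521.7 to 575.8 CPM in WT and 1170 to 1244 CPM in 5xFAD. Summed microglial markers, of which 3 of 6 tested rose, Cx3cr1 and P2ry12 among them, were 284.6 to 290.0 CPM in WT and 453.3 to 568.0 CPM in 5xFAD, oligodendrocyte markers 4281 to 5202 CPM and 3724 to 3849 CPM, and endothelial markers 244.6 to 287.6 CPM and 214.4 to 253.7 CPM. Neuronal markers summed to 7079 to 7468 CPM in WT and 6773 to 10460 CPM in 5xFAD, and oligodendrocyte precursor markers to 144.9 to 148.6 CPM and 122.6 to 143.2 CPM. Meningeal markers were at 186.5 to 308.6 CPM and 152.6 to 274.0 CPM. Red blood cell genes, 4 of 5 called lower, were at 54.87 to 84.89 CPM in WT and at 1.056 to 2.351 CPM in 5xFAD. In bulk tissue, fewer cells of a type and less RNA per cell cannot be told apart, and the part that any of these differences had in the results below was not tested.

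Aqp4 was the only one of the 9 genes to pass the test. By edgeR's quasi-likelihood test with Benjamini-Hochberg adjustment, 1 of the 9 was higher and 0 were lower in 5xFAD at an adjusted p of 0.05, where 0.667% of all tested genes were called higher, 0.0933% lower and 0.761% in either direction. At an unadjusted p of 0.05 the count was 2 of 9, Aqp4 and Slc1a2, where 18.9% of all tested genes passed. None of the 9 reached a 2-fold change, which 0.531% of tested genes did while passing the test. DESeq2 and limma-voom also called Aqp4 and none of the other 8. Without regard to any test, the 3 5xFAD libraries lay above the 3 WT libraries for Aqp4, Slc1a2 and Glul, as they did for 13.2% of tested genes, and below them for none of the 9, as for 15.1% of tested genes. The median log2 fold change of the 9 genes was 0.14, with 6 above 0 and 3 below, beside a median of -0.01 over all tested genes, of which 49.1% were above 0.

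The water channel gene Aqp4 (ENSMUSG00000024411, chromosome 18, 15389496 to 15410982, minus strand, GRCm38) stood at 213.0, 195.8 and 227.9 CPM in WT replicates 1 to 3 and at 328.6, 363.2 and 300.8 CPM in 5xFAD replicates 1 to 3. Every 5xFAD library was above every WT library, with a gap between the groups that was wider than the range within either. These levels rested on 4225 to 4989 reads in WT and 6489 to 7404 reads in 5xFAD. The mean rose from 212.2 ± 16.1 to 330.9 ± 31.3 CPM (SD, n = 3 each), which was a 1.56-fold change (log2 0.64, SE 0.10, 95% interval 0.41 to 0.87, edgeR adjusted p = 0.0372). Aqp4 transcripts are GC-poor (41.4% GC), and genes near that GC content had median deviations of 0.23 and 0.47 in 5xFAD replicates 1 and 2 and of 0.01 in 5xFAD replicate 3. With the GC and length term, the levels were 230.5, 215.6 and 242.5 CPM in WT and 306.3, 282.7 and 327.3 CPM in 5xFAD, the groups still did not overlap, and the log2 fold change was 0.41 (edgeR adjusted p = 0.0423, where 1.1% of tested genes were called higher). In 5xFAD replicate 3 alone, the library without the GC trend, the log2 fold change was 0.52. Its edgeR adjusted p of 0.0403, where 0.631% of tested genes were called higher, has only the spread of the WT libraries behind it. The call rested on few libraries. It was lost without WT replicate 1, 2 or 3 (log2 fold changes of 0.64, 0.59 and 0.69, edgeR adjusted p = 0.287, 0.191 and 0.116) and without 5xFAD replicate 1 (0.65, adjusted p = 0.238). In the same fits the count of all genes called was 12, 17, 14 and 20, beside 106 with all libraries. With the replicate number as a block the call was also lost (0.64, edgeR adjusted p = 0.187), but not with the GC and length term added to the block (0.41, edgeR adjusted p = 0.0405). The direction held in all 15 alternatives, with adjusted p from 1.035e-05 (DESeq2) to 0.287. Beside Aqp4, which ependymal cells also express, stand 6 markers of ependymal and choroid plexus cells, none at 0, with a median log2 fold change of -0.07 (0.09 with the GC and length term) and a summed level of 130.3 to 142.3 CPM in WT and 207.4 to 471.9 CPM in 5xFAD. The sum was mostly Ttr, a choroid plexus gene (84.1 ± 6.47 and 279.8 ± 126.9 CPM, edgeR adjusted p = 0.0586, or 0.0201 with that term), while the ependymal marker Foxj1 was at 13.96 ± 5.30 and 10.71 ± 1.00 CPM. Without that term, the log2 fold changes of Folr1 (1.39, at 0.61 ± 0.30 and 1.61 ± 0.25 CPM) and Kl (0.18) were also above 0. Those of Foxj1 (-0.38), Ccdc153 (-0.47) and Tmem212 (-0.32) were below 0. Apart from Ttr with that term and 1 marker in 5xFAD replicate 3 alone, none of the 6 was called in these fits, and their part in the rise of Aqp4 was not tested.

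The other endfoot genes gave no such difference. Dag1 (ENSMUSG00000039952, chromosome 9, 108204634 to 108263958, minus strand) encodes dystroglycan, and was at 137.6, 139.3 and 136.5 CPM in WT and at 135.6, 136.5 and 139.4 CPM in 5xFAD. On these values its groups overlapped fully. It was also the steadiest of the 9 genes on them, with a coefficient of variation of 1.03% in WT and 1.46% in 5xFAD. The log2 fold change was -0.01 (SE 0.07, edgeR adjusted p = 0.96), with a 95% interval of -0.17 to 0.16 that leaves room for a change of either sign. With the GC and length term, Dag1 was at 132.4, 134.0 and 131.3 CPM in WT and at 140.0, 151.7 and 136.5 CPM in 5xFAD. Every 5xFAD library was then above every WT library, but Dag1 was not called (log2 fold change 0.11, edgeR adjusted p = 0.379). That separation was not compared with all tested genes. Mlc1 (ENSMUSG00000035805, chromosome 15, 88955884 to 88979007, minus strand) encodes a membrane protein of perivascular endfeet that is mutated in a human leukoencephalopathy with cysts. It was at 146.0, 150.6 and 140.6 CPM in WT and at 132.2, 82.17 and 161.0 CPM in 5xFAD. Within 5xFAD it was the most scattered of the 9 genes, with the lowest value of all 6 libraries in replicate 2 and the highest in replicate 3 (coefficient of variation 31.9%, against 3.44% in WT). The log2 fold change of -0.22 (SE 0.21, 95% interval -0.71 to 0.28, edgeR adjusted p = 0.534) turned to 0.01 without 5xFAD replicate 2. Genes of like GC content had a median deviation of -0.12 in that library, where Mlc1 deviated by -0.83, and with the GC and length term Mlc1 still had its lowest level there, 87.81 CPM, against 134.0 and 157.9 CPM in the other 5xFAD libraries.

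**Figure D1:**
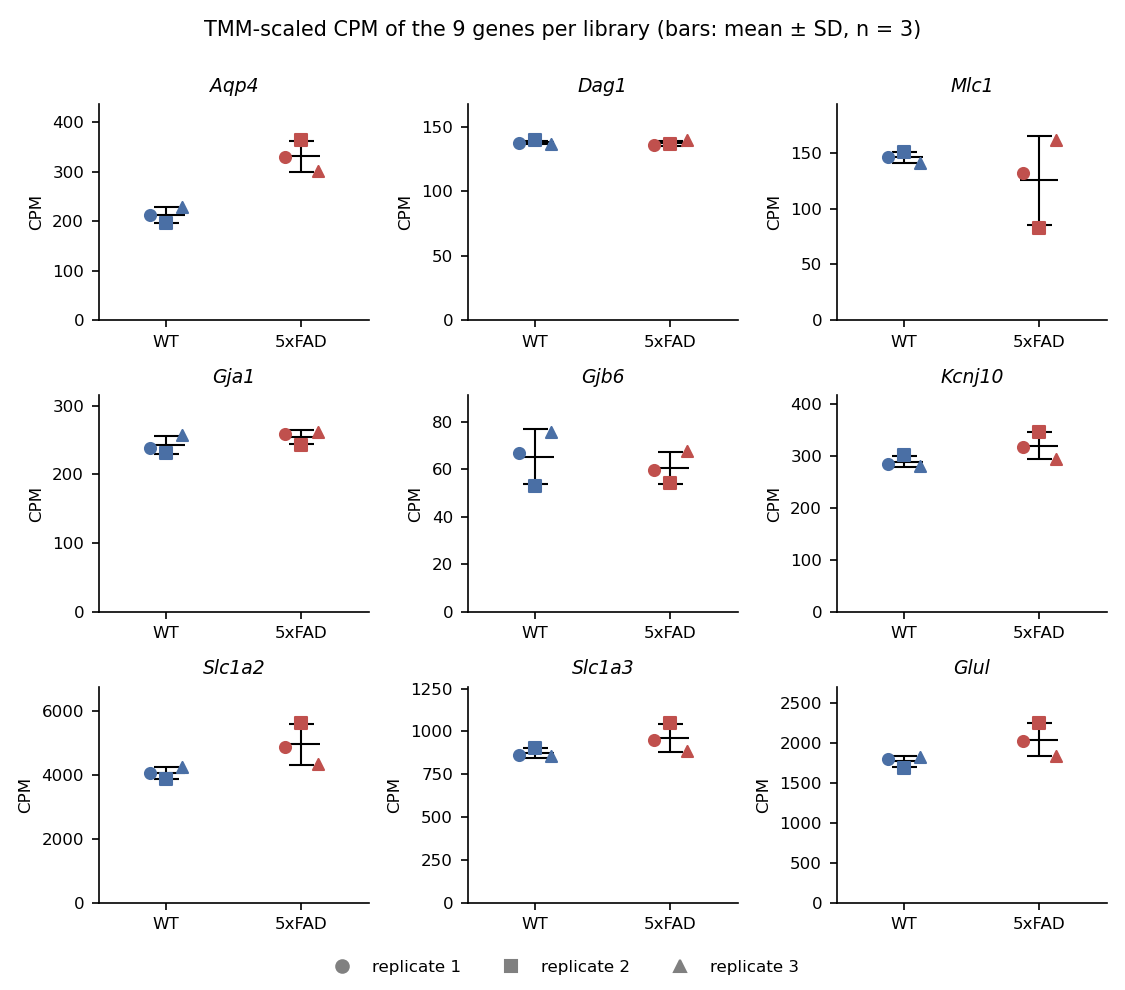
Level of each of the 9 genes in every library, in TMM-scaled CPM on axes that start at 0. Points are libraries, with a circle, square or triangle for replicates 1, 2 and 3 (blue WT, red 5xFAD), and bars are the mean and SD of 3 libraries. Aqp4 lies at 195.8 to 227.9 CPM in WT and at 300.8 to 363.2 CPM in 5xFAD, and 5xFAD replicate 2 is the highest library for Aqp4, Kcnj10, Slc1a2, Slc1a3 and Glul and the lowest for Mlc1.

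Neither astrocyte connexin passed the test. Gja1 (ENSMUSG00000050953, chromosome 10, 56377330 to 56402513, plus strand), which encodes connexin Cx43, was at 238.8, 231.6 and 257.0 CPM in WT and at 259.1, 243.2 and 262.4 CPM in 5xFAD. The groups overlapped, since 5xFAD replicate 2 lay between WT replicates 1 and 3. The log2 fold change was 0.07 (SE 0.08, 95% interval -0.11 to 0.25, edgeR adjusted p = 0.575). Once GC content and length were modelled it was -0.08, so its sign depended on that step. Gjb6 (ENSMUSG00000040055, chromosome 14, 57123303 to 57133611, minus strand), which encodes connexin Cx30, was at 66.88, 53.1 and 75.84 CPM in WT and at 59.52, 54.35 and 67.78 CPM in 5xFAD. All 3 5xFAD libraries lay inside the WT range, and Gjb6 was the most scattered of the 9 genes in WT (coefficient of variation 17.6%). Its fold change was -0.11 on the log2 scale (SE 0.14, 95% interval -0.44 to 0.23, edgeR adjusted p = 0.653).

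Kcnj10 (ENSMUSG00000044708, chromosome 1, 172341210 to 172374085, plus strand) encodes Kir4.1, the inward rectifier that sets the resting potential of astrocytes and buffers potassium. It was at 284.0, 301.3 and 281.5 CPM in WT and at 318.1, 347.5 and 295.1 CPM in 5xFAD. Replicates 1 and 2 of 5xFAD were above every WT library, and replicate 3 lay inside the WT range. On the log2 scale the fold change was 0.15 (SE 0.09, 95% interval -0.05 to 0.35, edgeR adjusted p = 0.338). It was 0.14 when GC content and length were modelled and 0.05 in 5xFAD replicate 3 alone.

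The glutamate genes had the highest levels and small positive fold changes that did not pass. Slc1a2 (ENSMUSG00000005089, chromosome 2, 102658659 to 102790784, plus strand), for the transporter that removes most synaptic glutamate in the forebrain, was at 4053, 3858 and 4248 CPM in WT and at 4876, 5627 and 4337 CPM in 5xFAD. The groups did not overlap, but 5xFAD replicate 3 was only just above WT replicate 3. With 83267 to 106734 reads per library, counting error is small beside the spread between libraries. Mean levels were 4053 ± 195 and 4947 ± 648 CPM (SD, n = 3 each). The log2 fold change was 0.29 (SE 0.10, 95% interval 0.05 to 0.53), with an edgeR p of 0.0258 before and 0.236 after adjustment. With the GC and length term it was 0.12 and in 5xFAD replicate 3 alone 0.11. Slc1a3 (ENSMUSG00000005360, chromosome 15, 8634124 to 8710764, minus strand), for the transporter that radial glia and Bergmann glia also use, was at 861.9, 906.3 and 855.0 CPM in WT and at 947.3, 1051 and 887.2 CPM in 5xFAD. Its groups overlapped in 5xFAD replicate 3, and the log2 fold change was 0.14 (SE 0.08, 95% interval -0.06 to 0.33, edgeR adjusted p = 0.354). It was 0.03 once GC content and length were modelled.

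Glul (ENSMUSG00000026473, chromosome 1, 153899944 to 153909723, plus strand) was at 1799, 1693 and 1821 CPM in WT and at 2028, 2255 and 1842 CPM in 5xFAD. The groups did not overlap, again with 5xFAD replicate 3 just above the highest WT library. The log2 fold change was 0.21 (SE 0.09, 95% interval -0.01 to 0.42), with an edgeR p of 0.0549 before and 0.269 after adjustment. It was 0.16 with the GC and length term and 0.07 in 5xFAD replicate 3 alone. Without 5xFAD replicate 3, both Slc1a2 (log2 fold change 0.37, edgeR adjusted p = 0.0232, the lowest of its 15 alternatives, which reached 0.523) and Glul (0.27, adjusted p = 0.0392, likewise the lowest, up to 0.629) were called higher, but on those 5 libraries, which kept the 2 5xFAD libraries with the GC trend, 22.9% of all genes tested were called in either direction. Slc1a2 shares 189 of its 13133 exon bases with Gm13872, an antisense transcript, and Glul shares 116 of 3323 with Teddm2 on the opposite strand. The sources used here do not state whether reads were counted by strand, so reads in these stretches could belong to either gene.

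**Figure D2:**
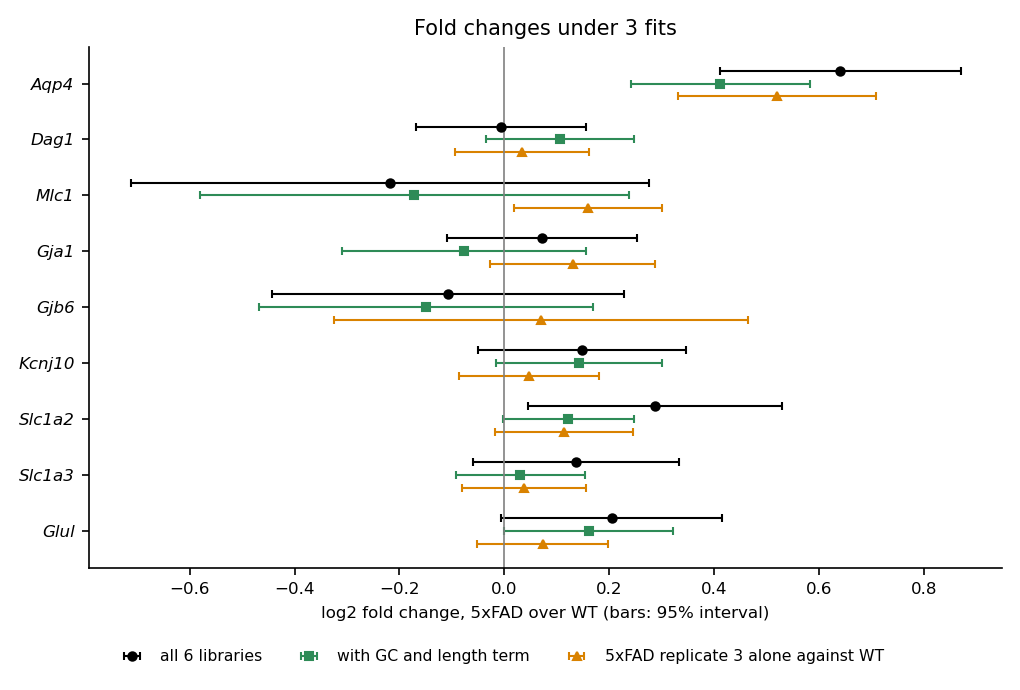
Log2 fold change of each gene, 5xFAD over WT, with its 95% interval, from all 6 libraries (black circles), with the GC and length term (green squares) and from 5xFAD replicate 3 alone against WT (orange triangles). The orange intervals hold the spread of the WT libraries only, since 1 5xFAD library enters that fit. Aqp4 is at 0.64, 0.41 and 0.52 in the 3 fits, while Dag1, Mlc1, Gja1 and Gjb6 change sign between fits.

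Set against genes of like GC content, the 5xFAD libraries showed how much each gene stood out. At the GC content of Slc1a2 (45.3%), the median deviation of all genes from the WT mean was 0.12 in 5xFAD replicate 1 and 0.29 in replicate 2, and Slc1a2 deviated by 0.27 and 0.47. Aqp4 deviated by 0.63, 0.78 and 0.51 in replicates 1 to 3, above the median of its GC neighbours in each. Dag1, at 52.8% GC, deviated by -0.02 and -0.01 in replicates 1 and 2, where genes near that GC content had medians of -0.08 and -0.19. In 5xFAD replicate 3, in which no such trend was seen, all 9 genes deviated upwards, but for the 8 other than Aqp4 by 0.14 or less. Gjb6, Kcnj10 and Slc1a3 (0.07, 0.03 and 0.02) lay inside the range of the WT libraries, and the others lay above it, Dag1 only just. The median log2 fold change of all tested genes with that library alone was -0.003. With the GC and length term the median log2 fold change of the 9 was 0.11, beside -0.01 for all tested genes.

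**Figure D3:**
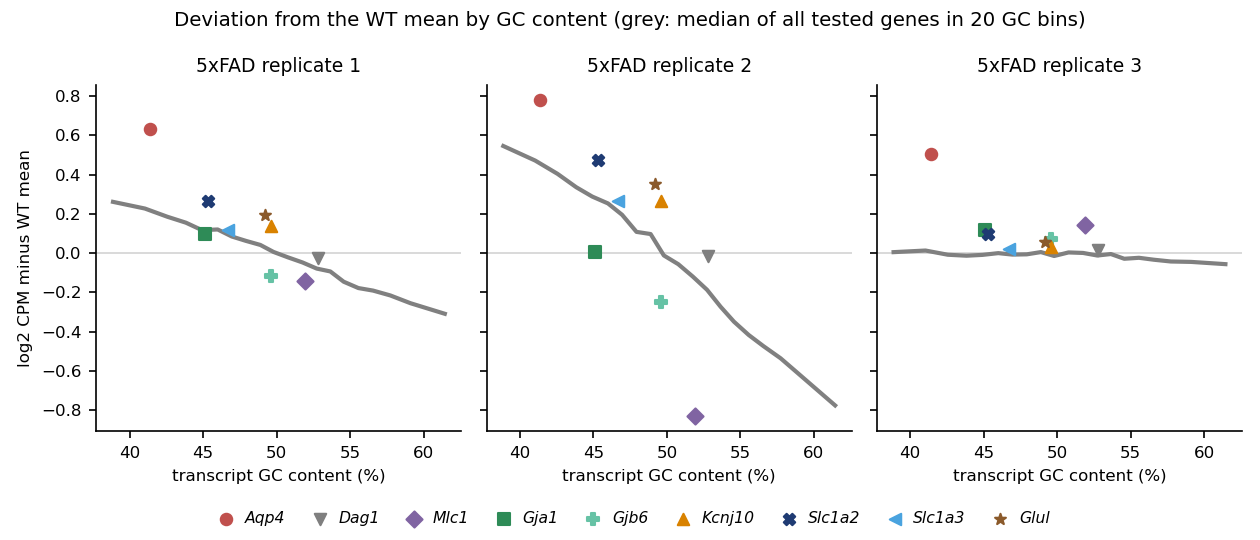
Deviation of each gene from its WT mean (log2 CPM) in 5xFAD replicates 1, 2 and 3 against the GC content of its longest coding transcript, with the median of all tested genes in GC bins as a grey line. The line slopes down in replicates 1 and 2 and is nearly flat in replicate 3, and Aqp4, at 41.4% GC, lies above it in all 3 (0.63, 0.78 and 0.51).

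Compared per length of transcript, the 9 genes covered a wide range of levels in WT. As CPM per kb of the longest coding transcript, Glul was highest with 634.3 ± 24.4 (SD, n = 3), and ranked 27 among 13707 genes. Slc1a2 followed with 349.6 ± 16.8 and Slc1a3 with 210.0 ± 6.69, and the ranges of these 3 over the WT libraries did not touch. Gja1 came next with 76.2 ± 4.11 CPM per kb. Kcnj10 (53.4 ± 2.00) and Mlc1 (52.0 ± 1.79) were neighbours whose WT ranges overlapped, so their order is not settled. Aqp4 was seventh with 41.99 ± 3.19, ahead of Gjb6 (31.0 ± 5.44) and Dag1 (24.34 ± 0.25). In 5xFAD, Aqp4 stood at 65.5 ± 6.18 CPM per kb, above Kcnj10 (59.2 ± 4.86), with library ranges that overlapped. By the length of all exons of a gene, Gja1 moved from rank 4 to rank 8 among the 9, since its exons cover 10257 bases against 3182 in the longest coding transcript.

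Ratios within a library set Aqp4 against its functional partners. In all, 6 ratios were compared, and with 3 libraries against 3 the two-sided exact permutation test cannot give a p below 0.1. The log2 ratio of Aqp4 to Kcnj10 was -0.41, -0.62 and -0.30 in WT and 0.05, 0.06 and 0.03 in 5xFAD. In WT Aqp4 was thus below Kcnj10 in each library, and in 5xFAD the 2 transcripts had nearly equal CPM. The difference of 0.49 between the groups fell to 0.27 with the GC and length term, and the groups of this ratio then overlapped. With the term Aqp4 and Kcnj10 were at 282.7 and 342.0 CPM in 5xFAD replicate 2, so the near equality did not hold there. In WT replicate 3 they were at 242.5 and 280.8 CPM, a higher ratio. Relative to Slc1a2, Aqp4 was higher by 0.36, and relative to Dag1 by 0.65 (0.29 and 0.31 with the term). Without the term, the groups did not overlap for any of these 3 ratios (exact permutation p = 0.1, the smallest possible, and 0.2 adjusted over the 6). The ratio of Slc1a2 to Slc1a3 was 2.21 ± 0.11 in WT and 2.36 ± 0.07 in 5xFAD, that of Gja1 to Gjb6 1.91 ± 0.19 and 2.08 ± 0.11, and that of Gja1 to Slc1a2 -4.06 ± 0.02 and -4.27 ± 0.24, all on the log2 scale with overlapping groups (exact permutation p = 0.2, 0.3 and 0.4). Once GC content and length were modelled, these differences went from 0.15, 0.17 and -0.21 to 0.09, 0.06 and -0.21.

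The 9 genes were also set against the mean log2 level of the 12 general astrocyte markers of the same library, which was 6.19 ± 0.02 in WT and 6.03 ± 0.19 in 5xFAD. On this scale Aqp4 was at 1.53, 1.45 and 1.63 in WT and at 2.31, 2.69 and 2.03 in 5xFAD, a difference of 0.80 (0.51 with the GC and length term). The 5xFAD libraries were also all above WT for Slc1a2 (difference 0.44), Glul (0.36) and Gja1 (0.24). With the term these differences were 0.22, 0.25 and 0.01, without 5xFAD replicate 2 they were 0.24, 0.19 and 0.17, and in 5xFAD replicate 3 alone 0.09, 0.04 and 0.10. For these 4 genes the exact permutation p was 0.1, or 0.225 adjusted over the 9, so none passed. The marker mean was itself lower by 0.16 in 5xFAD, which raises every gene on this scale, and 17.6% of all tested genes had 5xFAD libraries all above WT on it. The other 5 genes overlapped between groups, with differences from -0.11 for Mlc1 to 0.31 for Kcnj10.

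**Figure D4:**
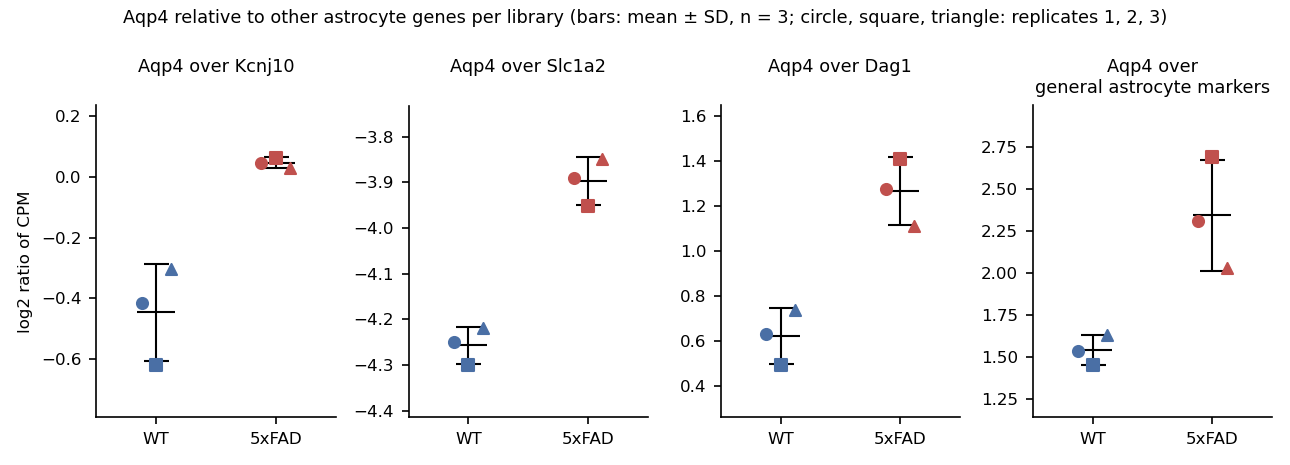
Aqp4 relative to Kcnj10, Slc1a2, Dag1 and the mean of 12 general astrocyte markers, as log2 ratios of CPM per library (circle, square and triangle for replicates 1, 2 and 3, blue WT, red 5xFAD, bars mean ± SD of 3 libraries). The y axes are log scales with different ranges. The values are without the GC and length term. In all 4 panels every 5xFAD library lies above every WT library, as for Aqp4 over Kcnj10 with means of -0.45 in WT and 0.05 in 5xFAD.

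Genes that work beside the 9 were read from 4 lists, and none of their 56 tested members was called by edgeR, DESeq2 or limma-voom. Of all tested genes edgeR called 0.761%, while DESeq2 called 492 genes and limma-voom 102. At so low a share, a count of 0 says little about the lists. At an unadjusted edgeR p of 0.05, 7 of the 56 passed, where 18.9% of all tested genes did. Among 17 tested partners of the endfoot and of dystroglycan, the median log2 fold change was -0.11, the same with the GC and length term and -0.04 in 5xFAD replicate 3 alone, with 4 above 0. The smallest p values there belonged to Sspn, for sarcospan, a membrane partner of dystroglycan (15.6 ± 0.76 CPM in WT, 12.6 ± 0.81 CPM in 5xFAD, a log2 difference of -0.31, edgeR adjusted p = 0.231) and to Agrn, for agrin (282.7 ± 14.2 and 214.5 ± 59.8 CPM, -0.40, adjusted p = 0.28). Agrn was at 220.7, 151.8 and 270.9 CPM in the 5xFAD libraries, lowest in replicate 2 and highest in replicate 3. With the GC and length term the log2 differences of Sspn and Agrn were -0.43 and -0.15. Hepacam, whose protein GlialCAM binds Mlc1, was at 144.7 ± 6.10 and 143.8 ± 10.01 CPM. The aquaporin genes other than Aqp4 gave little signal, with Aqp1 under 1 CPM in every library and Aqp9 below the filter.

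All 10 other connexins and pannexins had fold changes below 0, with a median of -0.42 on the log2 scale, or -0.34 with the GC and length term and -0.26 in 5xFAD replicate 3 alone. With that term Panx2 turned from -0.10 to 0.33, and Gja5 was under 1 CPM in every library. None of the 10 passed. The smallest p values were those of Gjb1, which encodes Cx32 of oligodendrocytes (14.7 ± 2.48 CPM in WT, 10.6 ± 1.17 CPM in 5xFAD, a log2 difference of -0.46, edgeR adjusted p = 0.229), and Gjb2, which encodes Cx26 (11.6 ± 4.78 and 7.14 ± 0.60 CPM, -0.70, adjusted p = 0.262). Beside Gjb1 stand the summed oligodendrocyte markers, which were also lower in all 3 5xFAD libraries, and their part in its value was not tested.

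Of the 10 genes for potassium, sodium and pH handling, 7 were above 0, and the median log2 fold change was 0.05 (-0.04 with the GC and length term). Slc4a4, the sodium bicarbonate cotransporter of astrocytes, was at 244.6 ± 7.81 CPM in WT and at 280.6 ± 6.19 CPM in 5xFAD (a log2 difference of 0.20, edgeR adjusted p = 0.236). Lrrc8a, a subunit of the volume-regulated anion channel, was at 8.72 ± 0.35 and 7.04 ± 0.64 CPM (-0.31, adjusted p = 0.268). Of the 19 genes of the glutamate, glutamine and GABA cycle 6 were above 0, with a median of -0.13, or -0.09 with the GC and length term and -0.05 in 5xFAD replicate 3 alone. Among them, Slc6a9, for the glycine transporter GlyT1, had the smallest p (63.5 ± 7.40 and 46.2 ± 6.25 CPM, -0.46, edgeR adjusted p = 0.19). Its 5xFAD libraries, at 44.89, 40.69 and 52.99 CPM, were all below the WT libraries, at 62.79, 71.26 and 56.51 CPM, as for 15.1% of tested genes. With the GC and length term the log2 difference of Slc6a9 was -0.21. With 5xFAD replicate 3 left out, where 22.9% of tested genes were called, 9 of the 56 passed, 1 higher and 8 lower, with Agrn, Clcn2, Gjb1, Slc38a3, Slc6a11 and Slc6a9 among the latter.

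**Figure D5:**
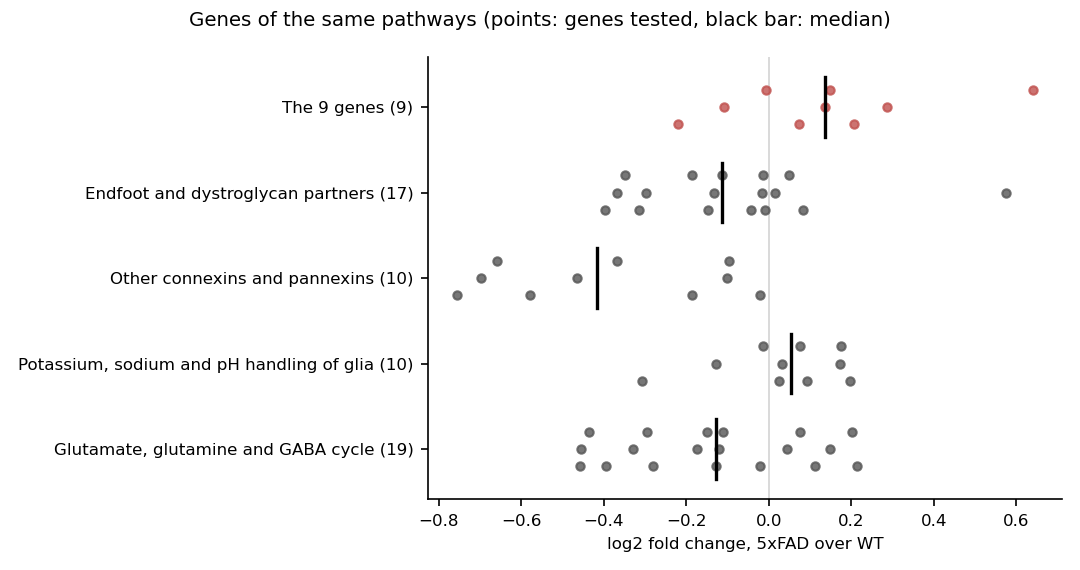
Log2 fold changes, 5xFAD over WT, of the 9 genes (red) and of 4 lists of genes from the same pathways (grey), 1 point per tested gene with the number tested in brackets and the median as a black bar. Points are spread vertically only for legibility. Medians run from -0.42 for other connexins and pannexins to 0.14 for the 9 genes, and Aqp4 at 0.64 is the only gene drawn that passed the test.

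The transcripts whose pattern over the 6 libraries was most like that of each lead gene were found among 7486 genes with a mean of at least 20 CPM. For Aqp4 these were Kif5c, Rnft1, Ptpn12, Tiparp and Cyp51, with Pearson r between 0.995 and 0.997 over 6 libraries. For Gja1 they were Ezh1, Tnip2, Ago1, Synpo and Nek6 (r of 0.979 to 0.990), and for Slc1a2 Dmxl2, Bmpr1a, Hace1, Rsbn1 and Zfp948 (r of 0.999). So high a likeness was common, since 503 genes had r above 0.9 with Aqp4, 51 with Gja1 and 1476 with Slc1a2. The 6 points share the GC trend of 2 libraries, and the values are a description with no test.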

How the data were processed

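Hippocampal RNA was depleted of rRNA and sequenced as paired-end reads in 3 5xFAD and 3 WT libraries, which were grouped by sample title. Per the submitters' processing notes, the reads went through cutadapt 1.9.3, HISAT2 2.0.4, HTSeq 0.9.1 and edgeR 3.16.5, with build mm10. The values deposited by the authors and used here are raw counts per gene, without normalization. The sources used here do not state the annotation or the strand setting of the counting. The table also held 6 columns of normalized values per sample, which were not used. The study's text is not uniform on the sex of the mice, and sex was not analysed here.

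Of 17385 genes, 13937 passed filterByExpr of edgeR 4.0.16 (R 4.3.3, minimum count of 10). Libraries were scaled by TMM, and 5xFAD was compared with WT by the two-sided quasi-likelihood test with Benjamini-Hochberg adjustment over all tested genes and a threshold of 0.05. Standard errors were taken as the log2 fold change divided by the root of the F statistic. Totals of 18997677 to 23873280 counts set the precision. Single values per library were compared by an exact permutation test in scipy 1.17.1. Lengths, GC content and coordinates came from GENCODE M21 (GRCm38), with GC content for 98.3% of tested genes. For the GC and length term, natural splines (4 degrees of freedom for each property) were fitted in every library and entered as offsets. Steps were tested on simulated data with 200 changed genes.

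The 9 genes, the pathway and marker lists and the alternatives were chosen with earlier results of these data known. The text names all 9 genes. Of each pathway list it names every gene called and otherwise the 2 with the smallest p (some genes the rule takes are left out here), and further, chosen after their values were seen, Hepacam, Aqp1 and Aqp9. For Aqp4, Gja1 and Slc1a2 it also names the 5 genes with the highest Pearson r (log2 CPM with a prior count of 0.5, mean of at least 20 CPM). The alternatives were DESeq2 size factors, total-count scaling, no low-count filter, DESeq2 1.42.0, limma-voom (limma 3.58.1), the replicate number as a block, the GC and length term, both together, leaving out each library, and 5xFAD replicate 3 alone. No libraries agreed within sampling noise, so each counted as 1 replicate.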

Additional observations from a re-analysis of the deposited data

How the results depend on the processing

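Fold changes of the 9 genes were recomputed under 15 alternatives. Of 135 values, 116 kept their direction and their side of the threshold. The count of genes called was 1 with all libraries, 0 with the replicate block and 0 to 3 on leaving out 1 library each. It was 0 without any of the WT libraries or 5xFAD replicate 1, and 3 without 5xFAD replicate 3 (Aqp4, Slc1a2 and Glul). With the block the log2 fold change of Aqp4 was 0.64 (edgeR adjusted p = 0.187). No pairing by replicate number was seen. The correlations of same-numbered deviations were 0.003, -0.04 and -0.05, and 0 of 6 libraries correlated best with their own number. These values cannot exclude pairing, since the GC trend differed between the 5xFAD libraries and was not seen in WT, which could mask a shared pattern. The block took the count over all genes from 106 to 20, and DESeq2 gave 492, the GC and length term 180, total-count scaling 69 and leaving out 1 library 12 to 3229. Of the pathway genes 0 were called with all libraries, 0 to 9 on leaving out 1 library and 1 with 5xFAD replicate 3 alone (Slc17a6, lower). That call rests on 1 library with the spread of WT only, since Slc17a6 was at 29.7, 45.7 and 15.5 CPM in the 5xFAD libraries and at 27.9 ± 0.15 CPM in WT. Directions turned for 4 of the 9 genes, none of them called, and for 3 relative values. On the log2 scale, Dag1 was at 0.11 with the GC and length term, at 0.10 with the block added and at 0.033 in 5xFAD replicate 3 alone, and ranged from -0.019 to 0.0085 on leaving out 1 library. Gja1 was at -0.077 with the term and at -0.085 with the block added. Mlc1 and Gjb6 were at 0.16 and 0.070 in 5xFAD replicate 3 alone and ranged from -0.44 to 0.015 and from -0.24 to 0.014. Relative to the astrocyte markers, Mlc1 was at 0.13 in 5xFAD replicate 3 alone and ranged from -0.23 to 0.063, and Gjb6 was at -0.050 with the term and ranged from -0.063 to 0.17. The log2 ratio of Gja1 to Slc1a2 differed by 0.017 in 5xFAD replicate 3 alone. In none of these was the cause tested. With 3 libraries per group, a change of the size seen for Kcnj10 or Slc1a3 could not be told from the spread between libraries.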
